A study of Mus musculus with 8 samples.

Results

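Mouse embryonic fibroblasts that carry WT-Stat3 (WT cells) were exposed to 100 µM hydrogen peroxide (H2O2) for 2 h and compared with the same cells left untreated (basal), gene by gene. The genes are all those whose mean expected count reached 10 in at least 1 of these groups, 13289 of the 19041 rows of the count table. RNA was sequenced in 4 groups of 2 libraries each, 8 libraries in all. These were WT H2O2 cells, WT basal cells, and H2O2 and basal cells of another line with Stat3-C3S (C3S cells), whose Stat3 lacks cysteines that are oxidised under oxidative stress. Every group shares the same starting cells, immortalised Stat3 fl/fl fibroblasts in which the endogenous Stat3 gene was deleted by Cre, marked by Thy1.1. Each line then received its Stat3 from a retrovirus that also encodes GFP. Both lines are polyclonal sorted populations, used at passage 15 to 20, and only the 4 WT libraries enter the main comparison. Whether the libraries of 1 group came from different cultures is not in the labels, although the study's text calls them biological replicates, so the p-values measure the spread between these libraries.

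Hydrogen peroxide crosses membranes and oxidises reactive cysteines in phosphatases, peroxiredoxins and sensor proteins such as Keap1. In fibroblasts it is known to act on mitogen-activated kinases, whose first targets are immediate early genes such as Egr1 and the AP-1 subunits, transcribed within minutes and without new protein synthesis. Slower programmes include the Nrf2 targets, which make glutathione and remove haem and peroxide, the p53 targets and the heat shock proteins.

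Values are normalised counts, that is expected counts divided by a size factor of the library, and log2 fold changes are H2O2 over basal. Values per library are normalised counts of replicate 1 and replicate 2, and a signed value beside an adjusted p is a log2 fold change with the edgeR p-value adjusted over all genes tested. The WT H2O2 libraries held 22260814 and 21209003 counts, and the WT basal libraries 19165944 and 18160070. The introduced Stat3 stood at 7527 and 7425 in WT H2O2 cells, against 8464 and 8835 in WT basal cells, a log2 fold change of -0.21 (SE 0.0391, adjusted p = 5.47e-06). Its counts cannot tell introduced from endogenous transcript. Fibroblast markers were abundant. Summed over 13 fibroblast markers found in the table, the level was 239412 and 232175 in WT H2O2 libraries, against 296832 and 297832 in WT basal libraries. Thy1 among them may include the Thy1.1 of the vector. In these bulk samples, fewer cells of a type and less RNA per cell cannot be told apart. Both libraries of a group differed by more than counting noise, with a chi-square per gene of 3.50 in WT H2O2 cells and 3.98 in WT basal cells, so neither is a copy of the other, and each was counted as 1 library. This does not show whether they came from separate cultures.

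Most of the genes called higher passed the filter on low counts only through the H2O2 libraries. Of 13289 genes tested with the quasi-likelihood test of edgeR, 1010 were called higher, which is 7.6%, and 236 lower, 1.78%, at an adjusted p under 0.05 and at least 2-fold, together 9.38%. By adjusted p alone the balance was the other way, with 2431 genes higher (18.3%) and 3546 lower (26.7%), and this balance depends on the scaling: scaled by library totals, which moves the median of all genes up by 0.11 on the log2 scale, 4097 were higher and 2164 lower, and by TMM factors 2909 and 2958. Whether small log2 fold changes, not far above 0.11 in size, pass the test can also depend on the scaling. The genes called higher made up 0.663% of all normalised counts in WT H2O2 cells and 0.188% in WT basal cells. The genes called lower made up 0.239% in WT H2O2 cells and 0.516% in WT basal cells. Of the rises, 694 passed the filter only through the H2O2 libraries and had to differ, and counts of rises in the lists include such genes. Of the falls, 30 passed only through the basal libraries. Among the 12140 genes that passed in both groups, 316 were called higher, 2.60%, and 206 lower, 1.70%. The median log2 fold change of these was 1.36 for rises and -1.22 for falls, and 7 rose and 0 fell by at least 3 on this scale. Their median basal level was 23.9 normalised counts for rises and 117 for falls. Counts of calls in gene lists are read beside the shares of all genes tested and of those that passed in both groups. Where a list gives counts alone, the shares of all genes tested are 7.6% called higher and 1.78% called lower. By adjusted p alone these shares are 18.3% and 26.7%. The lists were chosen with earlier results of these data known.

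**Figure D1:**
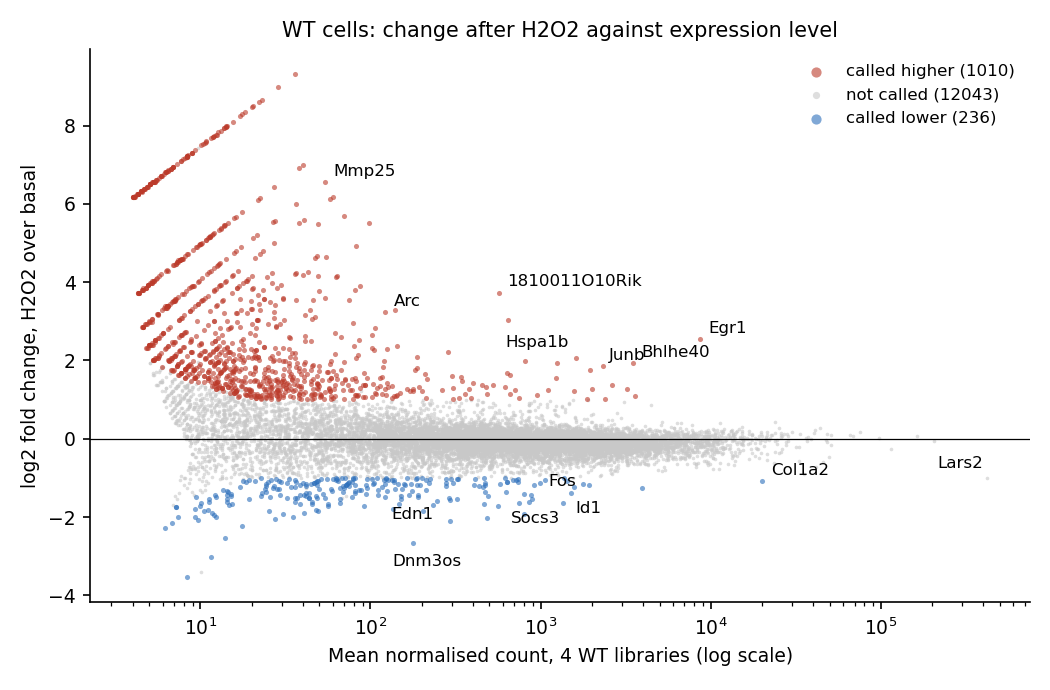
Mean normalised count over the 4 WT libraries (x axis, log scale) against the log2 fold change of H2O2 over basal (y axis) for each of the 13289 genes tested, with genes called higher in red, genes called lower in blue and the others in grey. The 1010 rises sit mostly at the low end of the x axis, and the 236 falls spread over levels up to Col1a2.

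Immediate early genes were split 2 h after peroxide, with Egr1, Junb, Ier2 and Jun high and Fos low. Egr1, the zinc finger factor induced by mitogens, stood at 14839 and 14635 in WT H2O2 cells, against 2444 and 2581 in WT basal cells, and both treated libraries lay far above both basal ones. Its log2 fold change was 2.55 (SE 0.0425, adjusted p = 2.62e-62), and of all genes it gained the most counts, 12224 normalised counts. Egr2, of the same family, stood at 292 and 295 in WT H2O2 cells, against 81.0 and 86.1 in WT basal cells, a log2 fold change of 1.81 (adjusted p = 8.11e-19). Egr3 stood at 38.1 and 45.4 in WT H2O2 cells, against 29.6 and 29.8 in WT basal cells, and did not pass the test (log2 fold change 0.48, adjusted p = 0.206). Nab2, a corepressor that binds Egr proteins, was lower by adjusted p alone (log2 fold change -0.29, adjusted p = 0.000155).

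Among the AP-1 subunits, which pair as dimers on DNA, Jun and Junb were higher, Fos and Fosb were lower and Fosl1 was higher. Junb stood at 3651 and 3597 in WT H2O2 cells, against 1068 and 929 in WT basal cells (log2 fold change 1.86, SE 0.0542, adjusted p = 8.83e-43). Jun stood at 4539 and 4539 in WT H2O2 cells, against 1927 and 1813 in WT basal cells (log2 fold change 1.28, adjusted p = 7.05e-38). Atf3, a stress-induced relative, stood at 1322 and 1279 in WT H2O2 cells, against 372 and 281 in WT basal cells (log2 fold change 1.99, adjusted p = 1.85e-27). The groups overlapped for none of these, which also held for 71.9% of all genes tested. Fos stood at 588 and 646 in WT H2O2 cells, against 1428 and 1290.3 in WT basal cells, a log2 fold change of -1.14 (SE 0.0643, adjusted p = 6.06e-26). Fosb stood at 991 and 1024 in WT H2O2 cells, against 1868 and 1749 in WT basal cells, which passed the adjusted p but not the 2-fold threshold (log2 fold change -0.84, adjusted p = 9.85e-23). Fosl1, a Fos relative known for its slower induction, was higher by a log2 fold change of 0.68 (adjusted p = 3.67e-18). Of the 11 AP-1 genes tested, 3 were called higher, 27.3% against 7.6% of all genes tested, and 1 lower, 9.09% against 1.78%. Their median log2 fold change was 0.68, against -0.02 over all genes tested.

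Arc rose the most among the other early genes named. Arc, which makes a capsid-like protein in neurons, stood at 209 and 234 in WT H2O2 cells, against 25.7 and 21.3 in WT basal cells (log2 fold change 3.23, SE 0.202, adjusted p = 6.65e-24). Ier2, an early response gene of unresolved function, stood at 2039 and 1922 in WT H2O2 cells, against 539.5 and 486 in WT basal cells (log2 fold change 1.95, adjusted p = 6.25e-42). Zfp36, which binds and destabilises AU-rich messages of cytokines, stood at 1834 and 1852 in WT H2O2 cells, against 658 and 588 in WT basal cells (log2 fold change 1.56, adjusted p = 1.99e-36). Nr4a1, an orphan nuclear receptor, and Btg2, an antiproliferative gene, were under 2-fold at 0.88 and 0.98 (adjusted p = 5.69e-17 and 1.99e-24). Myc did not pass the test at 2534 and 2397 in WT H2O2 cells, against 2371 and 2323 in WT basal cells (log2 fold change 0.07, adjusted p = 0.241). Sik1, a kinase induced by cyclic AMP that restrains CREB coactivators, fell to 361 and 356 in WT H2O2 cells, against 1141 and 1111 in WT basal cells (log2 fold change -1.65, SE 0.0718, adjusted p = 2.22e-33). The list of 29 tested genes had 6 called higher and 1 lower, and 20 higher by adjusted p alone and 6 lower.

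**Figure D2:**
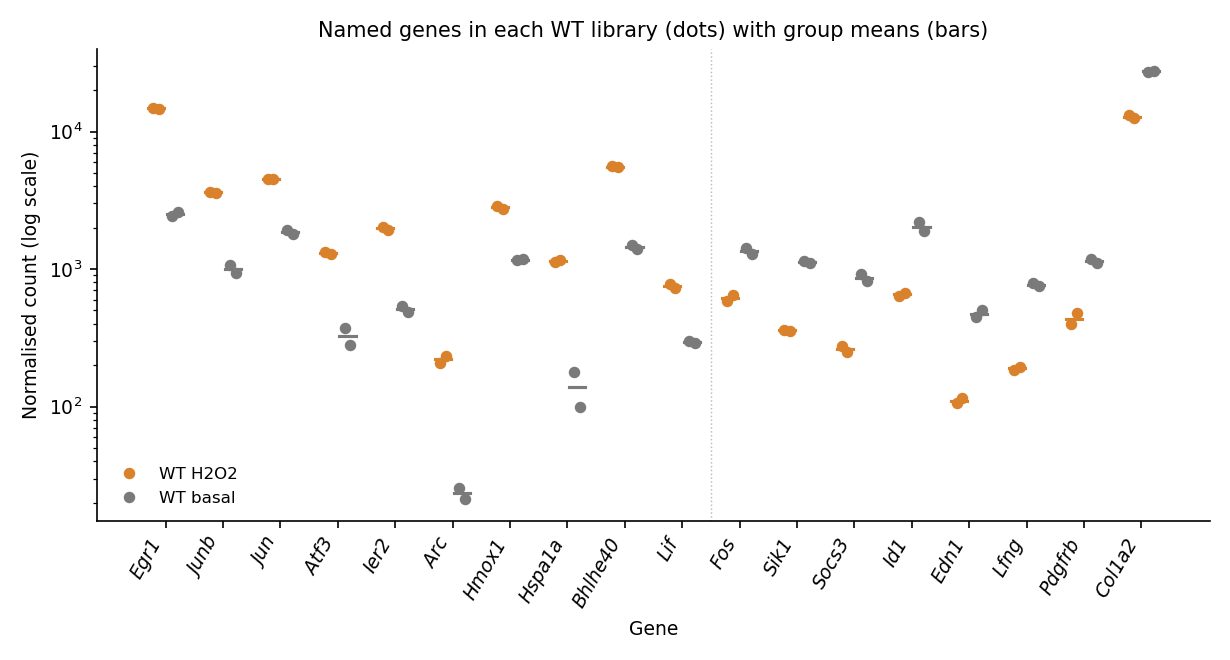
Normalised counts of 18 named genes in each library (y axis, log scale; the 2 WT H2O2 libraries in orange left of the 2 WT basal libraries in grey, with bars at the group means). Egr1, Junb, Atf3 and Hmox1 lie above their basal libraries. Fos, Socs3, Id1, Edn1 and Col1a2 lie below theirs. The groups of these genes do not overlap, which holds for 71.9% of all genes tested.

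Promoters of 4 called genes are shown because each holds a motif of a factor whose target genes are described here, 3 from genes that rose and 1 from a gene that fell. The sequences are the 250 bases before the start in the RefSeq annotation of GRCm38.p6, written 5′ to 3′ on the gene's own strand, and capitals mark the motif. Zfp36 (chr7:28379229-28379478, minus strand) holds the CArG box of serum response factor and TTCNNNGAA, the core of a Stat element. Areg (chr5:91139349-91139598, plus strand) holds TGACGTCA, the cyclic AMP response element. Hspa1a (chr17:34972157-34972406, minus strand) holds GAANNTTC, a core of the heat shock element, and Socs3 (chr11:117969367-117969616, minus strand) holds TTCNNNGAA.
Zfp36: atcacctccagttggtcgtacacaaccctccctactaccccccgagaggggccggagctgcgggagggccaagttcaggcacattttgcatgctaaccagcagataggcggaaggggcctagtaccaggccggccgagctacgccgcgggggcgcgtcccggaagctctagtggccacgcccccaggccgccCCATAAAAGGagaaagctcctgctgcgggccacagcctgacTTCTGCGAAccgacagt
Areg: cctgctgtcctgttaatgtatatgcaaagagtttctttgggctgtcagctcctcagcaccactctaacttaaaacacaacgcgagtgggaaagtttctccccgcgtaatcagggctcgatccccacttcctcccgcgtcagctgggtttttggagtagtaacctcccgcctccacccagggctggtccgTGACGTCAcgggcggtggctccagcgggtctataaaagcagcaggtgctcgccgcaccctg
Hspa1a: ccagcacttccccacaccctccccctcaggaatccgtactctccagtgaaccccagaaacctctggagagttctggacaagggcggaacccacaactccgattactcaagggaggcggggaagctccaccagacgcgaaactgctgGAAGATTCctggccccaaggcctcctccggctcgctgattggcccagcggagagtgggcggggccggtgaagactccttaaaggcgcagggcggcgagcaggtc
Socs3: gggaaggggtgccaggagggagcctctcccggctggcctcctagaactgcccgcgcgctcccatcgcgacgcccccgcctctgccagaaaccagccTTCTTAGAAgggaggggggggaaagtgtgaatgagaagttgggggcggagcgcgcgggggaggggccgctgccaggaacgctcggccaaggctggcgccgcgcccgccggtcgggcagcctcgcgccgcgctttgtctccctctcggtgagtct
The motifs were searched on both strands over 250 bases before to 50 after the start. Among promoters of tested genes, the CArG box was found in 1.37%, TTCNNNGAA in 6.86%, TGACGTCA in 3.31% and GAANNTTC in 5.54%. A match in these letters is a description, not a bound site. A promoter was at hand for 10483 of the tested genes, 78.9%, including 749 called higher and 167 called lower. These 4 motifs were in 2.27%, 7.34%, 2.27% and 6.54% of promoters called higher, in that order. In those called lower they were in 2.99%, 8.38%, 3.59% and 6.59%. The AP-1 motif TGANTCA was in 9.35% called higher, 5.39% called lower and 5.07% of all tested. For the hypoxia element, ACGTG or GCGTG, the shares were 50.9%, 47.3% and 63.0%. For TGACNNNGC, the antioxidant element core, they were 16.2%, 8.98% and 14.8%. No difference between sets was tested.

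Feedback inhibitors of the kinase cascade moved in both directions. Of 12 MAP kinase phosphatases tested, 2 were called higher, 16.7% against 7.6% of all genes tested. Of these 2, 1 passed the filter only through the H2O2 libraries. Dusp8, which acts on the stress kinases Jnk and p38, stood at 873 and 891 in WT H2O2 cells, against 333 and 367 in WT basal cells (log2 fold change 1.33, SE 0.0778, adjusted p = 1.11e-25). Dusp1 stood at 839 and 802 in WT H2O2 cells, against 950.0 and 867 in WT basal cells and did not pass the test (log2 fold change -0.15, adjusted p = 0.0558), and Dusp6, the Erk phosphatase, was lower, with a log2 fold change of -0.22 (adjusted p = 2.57e-05). Of 7 Sprouty and Spred genes, which restrain receptor kinases, Spry1 was the 1 called lower, at 121 and 124 in WT H2O2 cells, against 252 and 246 in WT basal cells (log2 fold change -1.02, adjusted p = 1.22e-09), and just under 2-fold without WT basal replicate 1. Of 13 Kruppel-like factors, 2 were called higher, 15.4% against 7.6% of all genes tested. Klf10, a factor induced by TGF-beta, stood at 3776 and 3839 in WT H2O2 cells, against 1526 and 1429 in WT basal cells (log2 fold change 1.36, SE 0.0496, adjusted p = 2.33e-38). Klf11, its close relative, stood at 506 and 538 in WT H2O2 cells, against 259 and 249.8 in WT basal cells (log2 fold change 1.04, adjusted p = 1.27e-15), and just under 2-fold without WT H2O2 replicate 2, at 0.99 (adjusted p = 4.34e-14), while Klf4 did not pass the test (log2 fold change -0.02, adjusted p = 0.777).

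The antioxidant programme was led by haem oxygenase. Hmox1, which breaks down haem and is a standard Nrf2 and Bach1 target, stood at 2870.3 and 2749 in WT H2O2 cells, against 1166 and 1180.0 in WT basal cells (log2 fold change 1.26, SE 0.0523, adjusted p = 1.32e-34). It was the 1 gene called of 32 Nrf2 targets tested, 3.13% against 7.6% of all genes tested. All 32 passed the filter in both groups, where 2.60% of genes were called higher. By adjusted p alone 16 targets were higher and 2 lower, with a median of 0.13. Scaled by library totals, 24 were higher and 1 lower. Slc7a11, the cystine importer, stood at 395 and 410.0 in WT H2O2 cells, against 235 and 259.9 in WT basal cells (log2 fold change 0.70, adjusted p = 1.85e-08). Nqo1, a quinone reductase, stood at 258 and 293 in WT H2O2 cells, against 182 and 206 in WT basal cells (log2 fold change 0.51, adjusted p = 0.000316). Srxn1, which repairs overoxidised peroxiredoxins, was higher by a log2 fold change of 0.20 (adjusted p = 0.00774), and Txnrd1, thioredoxin reductase, lower by adjusted p alone (log2 fold change -0.15, adjusted p = 0.000775). The glutathione synthesis genes Gclc and Gclm did not pass the test, at 0.07 (adjusted p = 0.431) and 0.12 (adjusted p = 0.0654). The ferritin genes Fth1 and Ftl1, which store iron, were higher by a log2 fold change of 0.39 and 0.29 (adjusted p = 1.04e-14 and 2.44e-10), and the transferrin receptor gene Tfrc did not pass (log2 fold change 0.01, adjusted p = 0.853).

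Enzymes that remove peroxide directly changed by small steps at their abundant members. Catalase (Cat) stood at 883 and 899 in WT H2O2 cells, against 805 and 871 in WT basal cells (log2 fold change 0.09, adjusted p = 0.273), and Gpx1 and Prdx2 were at 0.08 (adjusted p = 0.194) and 0.11 (adjusted p = 0.063), none of which passed the test. Prdx1 and Prdx6 passed by adjusted p alone at 0.14 and 0.16 (adjusted p = 0.00292 and 0.00367). Which of these small changes pass depends on the scaling. In the list of peroxide scavengers and antioxidant enzymes, 7 genes were higher and 4 lower by adjusted p alone. Scaled by library totals, 16 were higher and 3 lower. Of 33 genes of this list, 1 was called higher and 1 lower, and both were scarce. Gpx7, a peroxidase of the endoplasmic reticulum, stood at 8.73 and 19.2 in WT H2O2 cells, against 33.6 and 34.0 in WT basal cells (log2 fold change -1.28, adjusted p = 0.0069). Sod3, the secreted superoxide dismutase, stood at 7.14 and 21.7 in WT H2O2 cells, against 1.98 and 7.49 in WT basal cells (log2 fold change 1.60, adjusted p = 0.0381). Sod3 passed the filter only through the H2O2 libraries, and its groups overlap. Without 1 library neither call held, with Gpx7 at -0.82 (adjusted p = 0.172) without WT H2O2 replicate 1 and Sod3 at 0.93 (adjusted p = 0.279) without WT basal replicate 1. Sesn2, a stress sensor of the amino acid and p53 programmes, stood at 675 and 695 in WT H2O2 cells, against 351 and 377 in WT basal cells, under 2-fold (log2 fold change 0.91, adjusted p = 3.88e-16).

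A few growth arrest and stress genes rose by 2-fold or more. Of 34 p53 targets and damage genes tested, 3 were called higher, 8.82% against 7.6% of all genes tested, and 0 lower. All 34 passed the filter in both groups, where 2.60% of genes were called higher. By adjusted p alone 15 were higher, 44.1% against 18.3% of all genes tested, and 2 lower, 5.88% against 26.7%. Gadd45g, a small protein that signals to stress kinases, stood at 519 and 553 in WT H2O2 cells, against 266 and 179.6 in WT basal cells (log2 fold change 1.26, adjusted p = 2.56e-11). Gadd45a, of the same family, stood at 144 and 179 in WT H2O2 cells, against 82.0 and 63.8 in WT basal cells (log2 fold change 1.14, adjusted p = 5.85e-08), and just under 2-fold without WT H2O2 replicate 2, at 0.98 (adjusted p = 9.35e-05), or WT basal replicate 2, at 0.98 (adjusted p = 9.06e-06). Ddit4, an inhibitor of mTORC1, stood at 653 and 655 in WT H2O2 cells, against 277 and 229 in WT basal cells (log2 fold change 1.37, SE 0.0914, adjusted p = 2.02e-22). The Cdk inhibitor Cdkn1a, the p53 brake Mdm2 and the death gene Pmaip1 lay under 2-fold, at 0.82, 0.67 and 0.98 (adjusted p = 8.55e-22, 4.8e-21 and 1.21e-15). Bbc3, another death gene of p53, did not pass (log2 fold change 0.33, adjusted p = 0.147). In the Atf4 list, 3 of 35 genes were called higher, 8.57%, and 1 of the 3 passed through the H2O2 libraries only. By adjusted p alone 15 were higher, 42.9%, and 6 lower, 17.1%. Ddit3 (CHOP) was among those called, at 278 and 277 in WT H2O2 cells, against 123 and 97.8 in WT basal cells (log2 fold change 1.33, adjusted p = 1.62e-13). Asns, asparagine synthetase, did not pass and stood at 2775 and 2745 in WT H2O2 cells, against 2691 and 2810.1 in WT basal cells (log2 fold change 0.01, adjusted p = 0.937). Of 39 genes of the Bcl2 family and cell death list, 0 were called higher and 0 lower, with 10 higher by adjusted p alone and 12 lower.

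The inducible Hsp70 genes rose strongly and the other heat shock genes little. Hspa1b, which encodes inducible Hsp70, stood at 2649.7 and 2548 in WT H2O2 cells, against 585 and 652 in WT basal cells (log2 fold change 2.07, SE 0.0588, adjusted p = 1.38e-45). Hspa1a, which encodes the same protein and whose promoter is shown above, stood at 1118 and 1169 in WT H2O2 cells, against 177 and 98.6 in WT basal cells (log2 fold change 3.04, SE 0.188, adjusted p = 5.56e-05). The basal libraries of Hspa1a differed from each other more than its treated ones. These genes are near-identical copies, so the split of reads between them is uncertain. Of 28 genes tested these were the 2 called, while 17 were higher and 2 lower by adjusted p alone. Dnajb1, the Hsp40 partner, was higher by a log2 fold change of 0.46 and Hsph1 by 0.29 (adjusted p = 7.87e-10 and 1.13e-08), and Hsp90aa1 did not pass (log2 fold change -0.05, adjusted p = 0.205). Among 23 genes of the endoplasmic reticulum list, Ddit3 was the 1 called, and Hspa5 (BiP), the main chaperone of that compartment, was higher by a log2 fold change of 0.18 (adjusted p = 1.27e-05).

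A few genes known as hypoxia targets rose by 2-fold or more. Bhlhe40, a repressor of the clock that Hif-1 also induces, stood at 5583 and 5513 in WT H2O2 cells, against 1498 and 1391 in WT basal cells (log2 fold change 1.94, SE 0.0484, adjusted p = 1.65e-49). Vegfa, the endothelial growth factor, stood at 2177 and 2244 in WT H2O2 cells, against 979 and 919 in WT basal cells (log2 fold change 1.22, SE 0.0552, adjusted p = 2.74e-32). Ankrd37 stood at 58.7 and 70.8 in WT H2O2 cells, against 26.7 and 22.3 in WT basal cells (log2 fold change 1.39, adjusted p = 4.21e-05). The 44 genes of this list had 4 called higher, 9.09% against 7.6% of all genes tested, and 0 lower. None of the 4 passed through the H2O2 libraries only, and among genes that passed in both groups 2.60% were called higher. By adjusted p alone 23 were higher, 52.3% against 18.3% of all genes tested, and 8 lower, 18.2% against 26.7% (median 0.15). The glucose transporter gene Slc2a1 was higher by a log2 fold change of 0.51 and lactate dehydrogenase Ldha by 0.15 (adjusted p = 1.24e-13 and 0.000804), whereas the hydroxylase genes Egln1 and Egln3 did not pass the test, at 0.09 (adjusted p = 0.2) and 0.32 (adjusted p = 0.0612).

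Several core clock genes were lower. Per3 stood at 79.0 and 66.8 in WT H2O2 cells, against 151 and 142 in WT basal cells (log2 fold change -1.01, adjusted p = 1.61e-06), and under 2-fold without WT H2O2 replicate 2, at -0.90 (adjusted p = 0.000317), or WT basal replicate 1, at -0.96 (adjusted p = 6.82e-05). Per2, at 225 and 179.9 in WT H2O2 cells, against 392 and 391 in WT basal cells, was just under 2-fold (log2 fold change -0.95, adjusted p = 1.15e-11). Per1 and Clock passed by adjusted p alone at -0.49 and -0.38 (adjusted p = 2.07e-09 and 6.16e-09). The nuclear receptors Nr1d1 and Nr1d2, which repress Arntl, did not pass at 0.01 (adjusted p = 0.948) and -0.01 (adjusted p = 0.943). In all, 2 of 16 clock genes were called higher, Bhlhe40 and the scarce Rora, and 1 lower, with 9 lower by adjusted p alone. Rora lost its call without any 1 of the 4 libraries, with adjusted p from 0.0603 to 0.18.

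In the cytokine axis of Stat3, the ligand Lif rose while the inhibitor Socs3 fell. Lif, which signals through gp130 to Stat3, stood at 784 and 731 in WT H2O2 cells, against 299 and 290.3 in WT basal cells (log2 fold change 1.36, SE 0.0838, adjusted p = 2.24e-24). Il11, of the same cytokine family, stood at 55.5 and 54.0 in WT H2O2 cells, against 22.9 and 16.4 in WT basal cells (log2 fold change 1.49, adjusted p = 6.33e-05). Socs3, the inhibitor that Stat3 itself induces and whose promoter is shown above, stood at 277 and 248 in WT H2O2 cells, against 917 and 818 in WT basal cells (log2 fold change -1.72, SE 0.0839, adjusted p = 3.29e-30). The receptor chains Il6st (gp130) and Lifr were lower by adjusted p alone, at -0.49 and -0.32 (adjusted p = 3.55e-16 and 3.72e-07). Socs1 and Cish, inhibitors of the same family, did not pass at -0.16 (adjusted p = 0.741) and 0.07 (adjusted p = 0.771). Of 31 genes of the axis, 3 were called higher, 9.68% against 7.6% of all genes tested, and 1 lower. All 31 passed the filter in both groups, where 2.60% of genes were called higher. By adjusted p alone, 13 were lower and 5 higher.

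Inflammatory genes changed in both directions. Nfkbia, the inhibitor that NF-kB induces, stood at 1574 and 1592 in WT H2O2 cells, against 874 and 913 in WT basal cells, under 2-fold (log2 fold change 0.83, adjusted p = 2.04e-21), and Relb was higher by a log2 fold change of 0.68 (adjusted p = 6.74e-10), while Nfkb1 did not pass (log2 fold change -0.06, adjusted p = 0.342). Cd274, the immune checkpoint ligand PD-L1, stood at 101 and 111 in WT H2O2 cells, against 32.6 and 40.4 in WT basal cells (log2 fold change 1.54, SE 0.226, adjusted p = 2.05e-08). Ccl2, a monocyte chemokine, was higher by a log2 fold change of 0.62 (adjusted p = 7.15e-10). Csf1, the macrophage growth factor, stood at 7531 and 7417 in WT H2O2 cells, against 12150.1 and 11642 in WT basal cells. Its change was under 2-fold (log2 fold change -0.67, adjusted p = 4.98e-26). Cxcl5, a neutrophil chemokine, stood at 57.9 and 41.5 in WT H2O2 cells, against 112 and 102 in WT basal cells (log2 fold change -1.10, adjusted p = 1.01e-05), and under 2-fold without WT H2O2 replicate 2, at -0.88 (adjusted p = 0.00333). Of 23 NF-kB genes tested 3 were called higher, 13.0% against 7.6% of all genes tested, and 0 lower. Of 34 interferon-stimulated genes 6 were called higher, 4 of them genes that passed only through the H2O2 libraries, and 1 lower. The 6 interferon-stimulated genes called higher were 17.6% of the list, against 7.6% of all genes tested, and became 3 without WT H2O2 replicate 1 and 2 with DESeq2.

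Pdgfrb, Fgf7, Irs2 and Edn1 fell, and Areg rose. Of 22 growth factors and vasoactive peptides tested, 4 were called higher, 18.2% against 7.6% of all genes tested, and 1 lower, 4.55% against 1.78%. Of these 4 rises, 1 passed only through the H2O2 libraries. Of 13 fibroblast growth factors and receptors, 2 were called higher, 15.4%, and 1 lower, 7.69%. Its 2 rises passed only through the H2O2 libraries. The rises of the fibroblast growth factor list were 0 without WT H2O2 replicate 2. Pdgfrb, a receptor of mesenchymal cells, stood at 396 and 476 in WT H2O2 cells, against 1186 and 1115 in WT basal cells (log2 fold change -1.40, SE 0.072, adjusted p = 9.48e-27). Pdgfra stood at 123 and 126 in WT H2O2 cells, against 263 and 214 in WT basal cells, just under 2-fold (log2 fold change -0.94, adjusted p = 2.37e-08). Of the 7 PDGF genes, 2 were called lower, and 4 were lower and 0 higher by adjusted p alone, and Pdgfa and Pdgfb did not pass, at -0.25 (adjusted p = 0.0869) and 0.07 (adjusted p = 0.694). Fgf7, a growth factor for epithelia, stood at 272 and 307 in WT H2O2 cells, against 635 and 666 in WT basal cells (log2 fold change -1.17, SE 0.0879, adjusted p = 8.88e-20), and Fgfr1 was lower by adjusted p alone (log2 fold change -0.52, adjusted p = 5.18e-12). Irs2, which couples the insulin and Igf1 receptors to their kinases, stood at 899 and 929 in WT H2O2 cells, against 1938 and 1942 in WT basal cells (log2 fold change -1.09, SE 0.0553, adjusted p = 4.16e-29), and Igf1r was at -0.48 (adjusted p = 2.03e-13). Edn1, the vasoconstrictor peptide, fell to 107 and 115 in WT H2O2 cells, against 448 and 501 in WT basal cells (log2 fold change -2.10, SE 0.118, adjusted p = 1.1e-26). Areg, an epidermal growth factor ligand whose promoter is shown above, stood at 96.0 and 74.1 in WT H2O2 cells, against 37.5 and 13.8 in WT basal cells (log2 fold change 1.71, adjusted p = 1.59e-06), and its relatives Ereg and Hbegf were higher by a log2 fold change of 0.52 and 0.49 (adjusted p = 7.9e-14 and 1.79e-12).

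Genes of the BMP pathway, which patterns the embryo, were lower at ligands, receptors and targets. In the BMP list, 3 of 23 genes were called lower, 13.0% against 1.78% of all genes tested, and 0 higher. By adjusted p alone 18 were lower, 78.3% against 26.7%, and 0 higher. The falls called in this list were 5 without WT H2O2 replicate 2 and 5 without WT basal replicate 1. Id1, a target of BMP receptors that blocks helix-loop-helix factors, stood at 642 and 667 in WT H2O2 cells, against 2182 and 1893 in WT basal cells (log2 fold change -1.64, SE 0.0611, adjusted p = 3.58e-33). Id2 and Id3 passed under 2-fold at -0.72 and -0.39 (adjusted p = 3.39e-17 and 8.87e-08). Gdf6, a BMP ligand of joints, stood at 11.9 and 9.16 in WT H2O2 cells, against 40.5 and 47.8 in WT basal cells (log2 fold change -2.05, adjusted p = 9.23e-06).

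Notch, Wnt and Hedgehog genes were mostly lower among those that passed by adjusted p alone, although the median of the Notch list, -0.10, becomes 0.01 scaled by library totals. Lfng, the fringe enzyme that adds sugars to Notch, fell to 186 and 195 in WT H2O2 cells, against 786 and 757 in WT basal cells (log2 fold change -2.02, SE 0.0908, adjusted p = 1.85e-32). Notch1 and Notch2 were lower by adjusted p alone, at -0.85 and -0.63 (adjusted p = 4.33e-10 and 1.02e-20), whereas the scarce Notch3 was called higher at 96.0 and 86.6 in WT H2O2 cells, against 27.7 and 20.2 in WT basal cells (log2 fold change 1.92, adjusted p = 2.08e-09). Of 42 Wnt genes, 3 were called lower, 7.14% against 1.78% of all genes tested, and 0 higher. Dkk3, a secreted relative of Wnt antagonists, stood at 58.7 and 61.6 in WT H2O2 cells, against 208 and 213 in WT basal cells (log2 fold change -1.80, SE 0.165, adjusted p = 1.13e-15). The receptor gene Fzd8 stood at 71.4 and 78.3 in WT H2O2 cells, against 183 and 153 in WT basal cells (log2 fold change -1.17, adjusted p = 1.43e-08). Rspo2, which enhances Wnt signals, stood at 124 and 119.9 in WT H2O2 cells, against 297 and 306 in WT basal cells (log2 fold change -1.31, adjusted p = 3.37e-14). Fzd7 was higher by adjusted p alone (log2 fold change 0.25, adjusted p = 0.000132). Gas1, a coreceptor for Hedgehog, stood at 945 and 923 in WT H2O2 cells, against 2239 and 2172 in WT basal cells (log2 fold change -1.24, SE 0.0543, adjusted p = 3.58e-33). Gli2, a transcription factor of the pathway, stood at 92.1 and 85.8 in WT H2O2 cells, against 179 and 220.0 in WT basal cells (log2 fold change -1.16, adjusted p = 1.64e-09). In the Notch list 2 of 23 genes were called lower, 8.70% against 1.78% of all genes tested. In it 5 were called higher, 21.7% against 7.6%, 4 of them through the H2O2 libraries only. These rises were 2 without WT H2O2 replicate 1, 2 without WT H2O2 replicate 2 and 3 without WT basal replicate 1. In the Hedgehog list 2 of 12 were called lower, 16.7% against 1.78% of all genes tested, and 1 higher, 8.33% against 7.6%. For TGF-beta the inhibitor Smad7 was higher by a log2 fold change of 0.47 (adjusted p = 2.12e-13), and the receptor genes Tgfbr2 and Tgfbr3 were lower by adjusted p alone, at -0.53 and -0.79 (adjusted p = 1.12e-14 and 6.98e-12).

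Many transcription factors of limb and mesenchyme were lower. Of 80 tested, 17 were called lower, 21.25% against 1.78% of all genes tested, and 1 higher, 1.25% against 7.6%. By adjusted p alone 52 were lower, 65% of the list beside 26.7% of all genes, and 5 higher. DESeq2 called 10 lower, and 33 were lower by its adjusted p alone. As the list was chosen with earlier results of these data known, these counts are a description only. Osr1, a factor of limb and kidney mesenchyme, stood at 277 and 243 in WT H2O2 cells, against 712 and 717 in WT basal cells (log2 fold change -1.46, SE 0.0875, adjusted p = 6.31e-25). Zfhx4, a large zinc finger and homeodomain protein, stood at 271 and 276 in WT H2O2 cells, against 629 and 663 in WT basal cells (log2 fold change -1.24, adjusted p = 5.57e-21). Alx4, a limb homeobox gene, stood at 62.2 and 80.6 in WT H2O2 cells, against 176 and 182 in WT basal cells (log2 fold change -1.33, adjusted p = 3.04e-10). The groups did not overlap for these, nor for 71.9% of all genes tested. Prrx1, which marks limb mesenchyme, was lower under 2-fold at 2086 and 2104 in WT H2O2 cells, against 3403 and 3550.2 in WT basal cells (log2 fold change -0.73, adjusted p = 3.92e-23). Sox9, the cartilage regulator, was the 1 called higher, at 1023 and 975 in WT H2O2 cells, against 403 and 446 in WT basal cells (log2 fold change 1.24, SE 0.0728, adjusted p = 1.98e-25), and Twist2 and Runx1 did not pass, at 0.10 (adjusted p = 0.424) and -0.02 (adjusted p = 0.741).

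**Figure D3:**
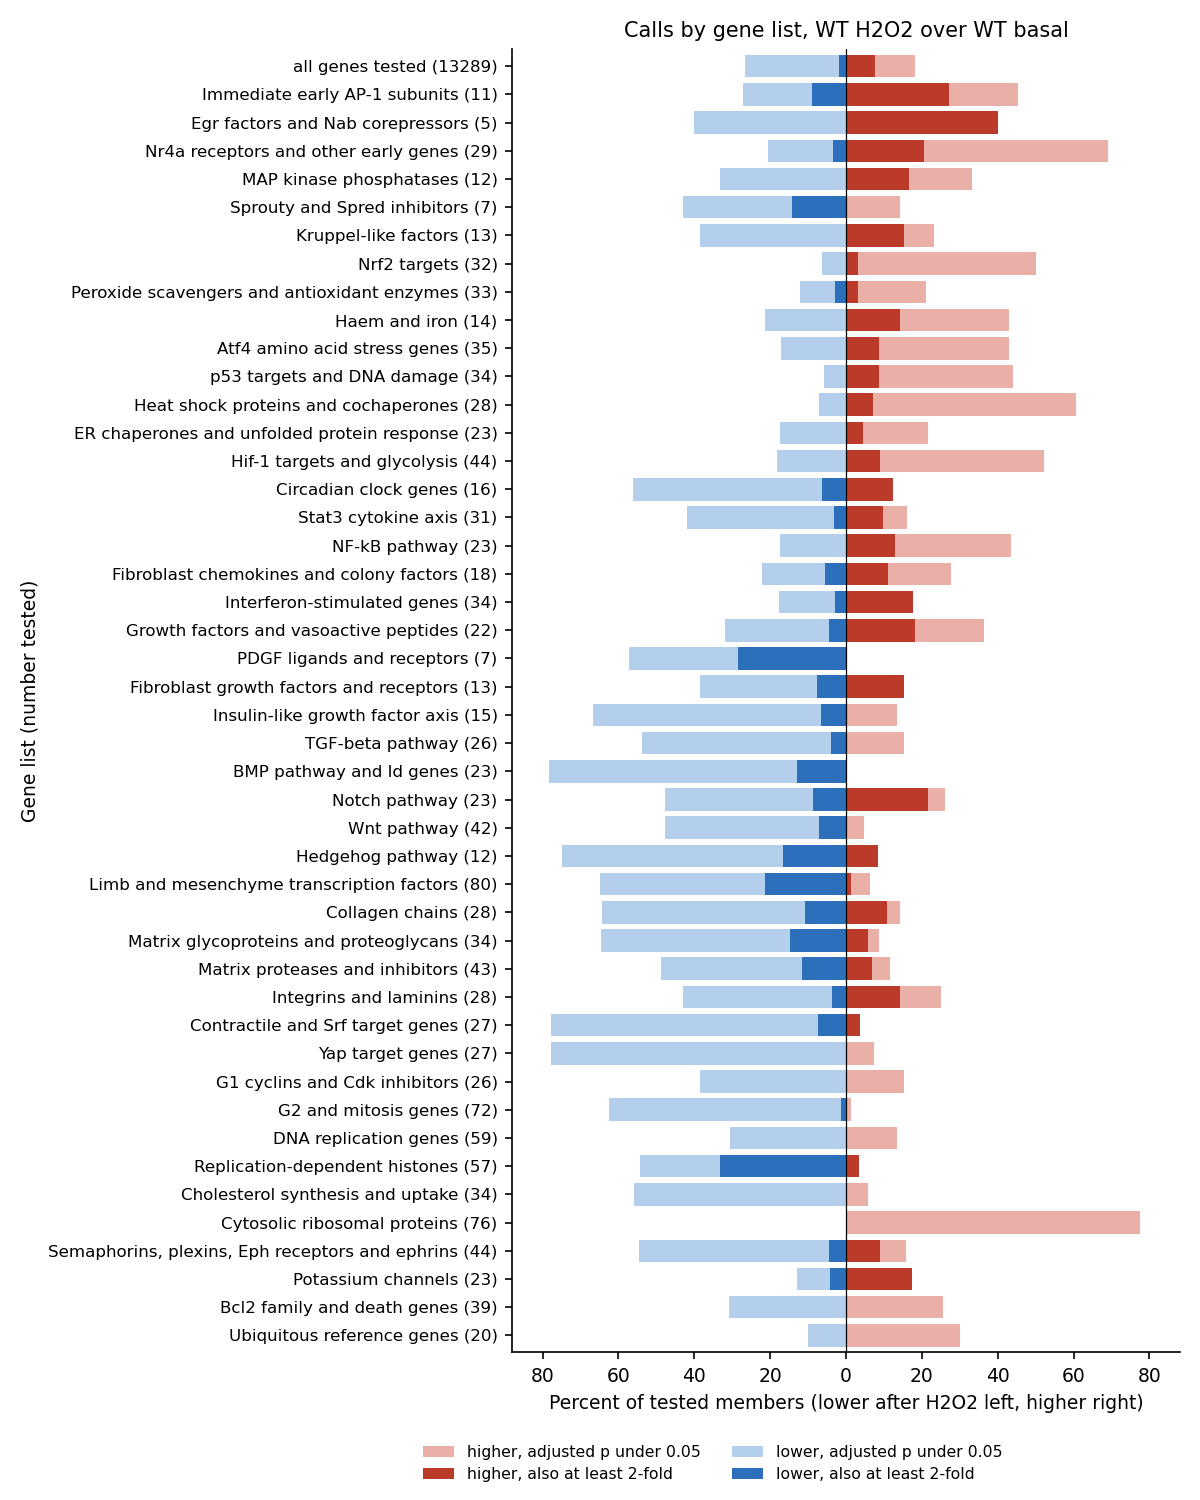
Share of the tested members of each gene list (y axis) that passed an adjusted p under 0.05 (x axis, percent), higher after H2O2 to the right in red and lower to the left in blue, with darker bars for those that were also at least 2-fold and the number tested beside each name. Ribosomal protein genes have 59 of 76 higher and none lower, and BMP and Yap lists lie to the left. The bars for all genes tested stand at the top.

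Structural genes of the fibroblast were lower at most members. Col1a2, a chain of type I collagen, stood at 13112 and 12549 in WT H2O2 cells, against 26959 and 27713 in WT basal cells (log2 fold change -1.09, SE 0.0364, adjusted p = 6.43e-41). Its partner Col1a1 stood at 42606 and 39966 in WT H2O2 cells, against 57113 and 57890.2 in WT basal cells and passed under 2-fold (log2 fold change -0.48, adjusted p = 1.63e-20). Col6a3, a chain of the beaded filaments, stood at 2309 and 2299.7 in WT H2O2 cells, against 5539 and 5536 in WT basal cells (log2 fold change -1.26, adjusted p = 2.87e-39), and Col6a1, its partner chain, was lower, with a log2 fold change of -0.28 (adjusted p = 2.41e-08). Col12a1, a collagen of the fibril surface, stood at 1120.4 and 1078 in WT H2O2 cells, against 2364 and 2531 in WT basal cells (log2 fold change -1.15, adjusted p = 9.17e-32). Of 28 chains tested, 3 were called lower, 10.7% against 1.78% of all genes tested, and 3 higher, 10.7% against 7.6%. By adjusted p alone, 18 were lower, 64.3% against 26.7% of all genes tested, and 4 higher, 14.3% against 18.3%. Among all tested genes with over 20 exons, 60.1% were lower. Without WT basal replicate 1, 5 chains were called lower. The rises were in scarce chains, such as Col20a1 at 78.6 and 90.0 in WT H2O2 cells, against 7.90 and 6.38 in WT basal cells (log2 fold change 3.53, adjusted p = 3.85e-14). Postn, periostin, which binds collagen, stood at 459 and 449.8 in WT H2O2 cells, against 1348 and 1315 in WT basal cells (log2 fold change -1.55, SE 0.0661, adjusted p = 6.81e-34). Thbs2, a thrombospondin, stood at 159 and 137 in WT H2O2 cells, against 468 and 415 in WT basal cells (log2 fold change -1.57, adjusted p = 1.02e-20). Fn1, fibronectin, stood at 103935 and 104223 in WT H2O2 cells, against 125733 and 124798 in WT basal cells, under 2-fold (log2 fold change -0.27, adjusted p = 1.02e-10). Of 34 matrix glycoproteins and proteoglycans, 5 were called lower, 14.7% against 1.78% of all genes tested, and 2 higher, 5.88% against 7.6%.

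Proteases and adhesion genes were mixed. Adamts5, which cuts aggrecan, stood at 881 and 784 in WT H2O2 cells, against 2100.0 and 2246 in WT basal cells (log2 fold change -1.38, SE 0.0572, adjusted p = 1.67e-33). Adam19, a membrane-bound metalloprotease, stood at 349 and 351 in WT H2O2 cells, against 883 and 914 in WT basal cells (log2 fold change -1.36, adjusted p = 1.36e-26), whereas Mmp13, a collagenase, was higher under 2-fold (log2 fold change 0.66, adjusted p = 3.64e-06). Mmp9, a gelatinase, stood at 30.2 and 37.5 in WT H2O2 cells, against 3.95 and 0 in WT basal cells, 83 counts over the WT H2O2 libraries and 4 over the WT basal libraries, and passed only through the H2O2 libraries. Of 43 proteases and inhibitors 5 were called lower, 11.6% against 1.78% of all genes tested, and 3 higher, 6.98% against 7.6%. Of the 3 rises, 2 passed through the H2O2 libraries only. The inhibitors Timp1, Timp2 and Timp3 had log2 fold changes of -0.29, -0.17 and -0.22 (adjusted p = 4.46e-06, 5.52e-05 and 2.08e-07). Itgb1, the common integrin chain, was at -0.33 (adjusted p = 8.35e-13) and Itga11, a collagen receptor, was called lower at 31.4 and 36.2 in WT H2O2 cells, against 92.9 and 105 in WT basal cells (log2 fold change -1.53, adjusted p = 5.94e-08). Of 28 integrins and laminins 1 was called lower, 3.57% against 1.78% of all genes tested, and 4 higher, 14.3% against 7.6%. Of the 4 rises, 3 were scarce genes that passed through the H2O2 libraries only.

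Contractile genes and genes driven by Yap were lower, mostly by less than 2-fold. Acta2, smooth muscle actin, stood at 7731 and 7538 in WT H2O2 cells, against 13020.1 and 12867 in WT basal cells (log2 fold change -0.76, SE 0.0381, adjusted p = 1.44e-29), and Tagln and Myl9 were at -0.50 and -0.74 (adjusted p = 1.26e-18 and 1.56e-14), whereas Actg1 and Actb did not pass, at 0.02 (adjusted p = 0.614) and -0.05 (adjusted p = 0.726). Of 27 contractile genes 21 were lower by adjusted p alone, 77.8% against 26.7% of all genes tested, and 1 higher. Those called lower were 2, Lmod1 and Actg2, 7.41% against 1.78%. Actg2 was under 2-fold without WT H2O2 replicate 1, at -0.85, or WT basal replicate 2, at -0.88. Of 27 Yap targets 21 were lower by adjusted p alone, 77.8% against 26.7% of all genes tested, and 2 higher, 7.41% against 18.3%. None was called. Cyr61, a matricellular Yap target, stood at 7445 and 7282 in WT H2O2 cells, against 10863 and 11066 in WT basal cells (log2 fold change -0.57, adjusted p = 2.5e-22). Amotl2, a Yap target that also restrains Yap, stood at 7626 and 7383 in WT H2O2 cells, against 11262 and 11123 in WT basal cells (log2 fold change -0.58, adjusted p = 1.99e-22). Ctgf, another target, was higher by a log2 fold change of 0.10 (adjusted p = 0.0262), and Ankrd1 did not pass (log2 fold change 0.10, adjusted p = 0.0757).

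Cell cycle genes moved by small steps with 1 exception. Ccnf, cyclin F, which directs ubiquitin ligases in the G2 phase, stood at 426 and 415 in WT H2O2 cells, against 1258 and 1307 in WT basal cells (log2 fold change -1.61, SE 0.0677, adjusted p = 3.22e-34) and was the 1 gene called of 72 G2 and mitosis genes. In this list 45 genes were lower by adjusted p alone, 62.5% against 26.7% of all genes tested, and 1 higher, with a median of -0.18. Scaled by library totals, 28 were lower and 9 higher. Ccnb1, cyclin B1, was at -0.16 (adjusted p = 0.00102), and Cdk1 and Aurkb did not pass, at -0.05 (adjusted p = 0.398) and 0.01 (adjusted p = 0.888). Ccnd1, cyclin D1, was lower by adjusted p alone at 2806 and 2603 in WT H2O2 cells, against 3501 and 3791 in WT basal cells (log2 fold change -0.43, adjusted p = 3.84e-12). The 59 replication genes had 0 called higher and 0 lower, with a median of -0.04 that becomes 0.08 scaled by library totals, and Pcna stood at 6121 and 6349 in WT H2O2 cells, against 6094 and 5675 in WT basal cells (log2 fold change 0.08, adjusted p = 0.0955).

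Replication-dependent histone genes were lower at many copies. Of 57 tested, 19 were called lower, 33.3% against 1.78% of all genes tested, and 2 higher, with a median of -0.84. DESeq2 called 14 lower, and the number called lower moved in both directions when 1 library was left out. Hist1h2bl stood at 144 and 183 in WT H2O2 cells, against 426 and 534 in WT basal cells (log2 fold change -1.55, adjusted p = 1.25e-16). Hist1h1d, a linker histone gene, stood at 67.5 and 95.1 in WT H2O2 cells, against 226 and 218 in WT basal cells (log2 fold change -1.45, adjusted p = 8.96e-13). Hist2h2be was higher and stood at 146 and 144 in WT H2O2 cells, against 18.1 and 32.6 in WT basal cells (log2 fold change 2.52, adjusted p = 8.65e-16). Copies of these genes are near-identical and the split of reads among them is uncertain.

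Ribosomal protein genes rose together by a small step. Of 76 tested, 59 were higher and 0 lower by adjusted p alone, 0 of them by 2-fold or more, with a median log2 fold change of 0.16 and a range of -0.23 to 0.42. Rplp0, of the ribosomal stalk, stood at 48267 and 47415 in WT H2O2 cells, against 40123 and 39619 in WT basal cells (log2 fold change 0.26, adjusted p = 5.24e-10). Rps2, of the small subunit, stood at 44779 and 43774 in WT H2O2 cells, against 39331 and 36812 in WT basal cells (log2 fold change 0.22, adjusted p = 2.27e-07). Many of these genes have processed pseudogenes that can share reads. The 20 ubiquitous reference genes had a median of 0.06. Of 34 cholesterol genes 19 were lower and 2 higher by adjusted p alone, 0 by 2-fold or more. Hmgcs1, an early enzyme of the path, was at -0.33 (adjusted p = 1.9e-09).

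The shares of genes higher and lower differed by genomic span. Spans, from first to last base of the gene in the GENCODE annotation of GRCm38, were at hand for 13146 genes, 98.9% of those tested. Of 1618 genes under 5 kb, 34.7% were higher and 9.83% lower by adjusted p alone, with a median log2 fold change of 0.16. Of 3615 genes of 20 to 50 kb the shares were 14.7% and 26.5% with a median of -0.04. Of 612 genes over 200 kb they were 2.94% and 53.8% with a median of -0.30. The medians went down at each of the 6 classes in turn, and scaling by library totals adds the shift given above to each of them. Among genes with a mean of at least 100 normalised counts they also went down, at 0.09 under 5 kb and -0.30 over 200 kb. Long genes that fell included Zfhx4 (197 kb), Trps1 (236 kb) and Col12a1 (119.8 kb). Falls of over 2-fold were not limited to long genes, since Edn1 spans 6.51 kb, Socs3 3.97 kb and Id1 1.16 kb. The share lower by adjusted p alone also differed by number of exons. It was 21.7% of genes with 1 exon, 16.2% with 4 to 6 and 60.1% with over 20. Genes are not replicates, and this is a description with no test.

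**Figure D4:**
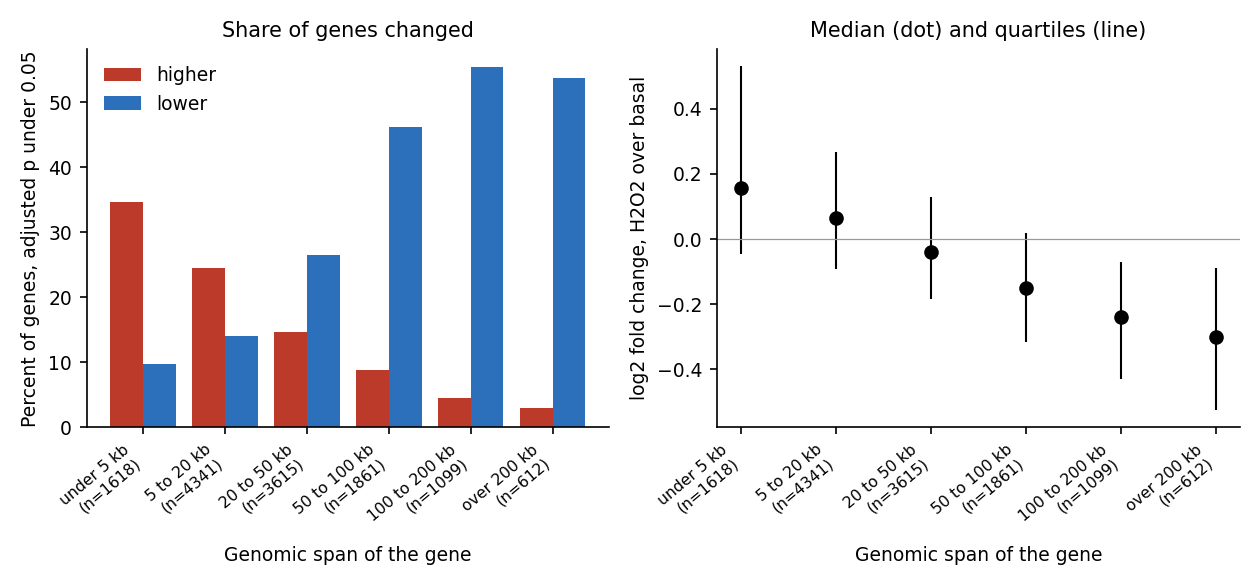
Genes by genomic span in 6 classes (x axis), with the percent of genes in the class passing an adjusted p under 0.05 (left panel, y axis, higher after H2O2 in red and lower in blue) and the log2 fold change (right panel, y axis, dots for the median and lines for the quartiles). The share of lower genes is 9.83% under 5 kb and 53.8% over 200 kb, and the medians fall from left to right.

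The largest losses in counts came from abundant transcripts. Ahnak, which encodes a giant membrane scaffold protein, stood at 24263 and 25268 in WT H2O2 cells, against 44672 and 47213 in WT basal cells (log2 fold change -0.89, SE 0.0354, adjusted p = 1.59e-35). Flna, the actin crosslinker filamin A, stood at 36628 and 36210.1 in WT H2O2 cells, against 54291 and 54979 in WT basal cells (log2 fold change -0.59, adjusted p = 1e-25). Lars2, a mitochondrial leucyl-tRNA synthetase gene, lost the most counts, at 240005 and 319164 in WT H2O2 cells, against 510239 and 611598 in WT basal cells, with groups that did not overlap. Its libraries varied within each group and it did not pass the test (adjusted p = 0.0754). Malat1, a nuclear long non-coding RNA, stood at 29302 and 33658 in WT H2O2 cells, against 47734 and 56324 in WT basal cells and also did not pass (log2 fold change -0.72, adjusted p = 0.0597). The largest gains in counts after Egr1 were in Eef1a1, an elongation factor, and Hsp90ab1, a chaperone, at log2 fold changes of 0.08 and 0.17 (adjusted p = 0.0335 and 3.29e-05).

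By fold change, the largest falls among genes of at least 100 normalised counts in the higher group began with Dnm3os. This long non-coding RNA, which is antisense to Dnm3, stood at 42.8 and 53.6 in WT H2O2 cells, against 311 and 302 in WT basal cells (log2 fold change -2.68, SE 0.158, adjusted p = 1.98e-25), and the strand of its reads is uncertain. Lrrn4, a leucine-rich repeat membrane protein, stood at 325 and 332 in WT H2O2 cells, against 1212 and 1303 in WT basal cells (log2 fold change -1.93, adjusted p = 7.29e-38). Mir17hg, the host transcript of a microRNA cluster, stood at 79.4 and 99.1 in WT H2O2 cells, against 339.9 and 297 in WT basal cells (log2 fold change -1.84, adjusted p = 1.6e-19). Mir22hg, another microRNA host, stood at 72.2 and 68.3 in WT H2O2 cells, against 235 and 214 in WT basal cells (log2 fold change -1.67, adjusted p = 3.07e-15). Tnfrsf11b, the decoy receptor osteoprotegerin, stood at 50.0 and 35.8 in WT H2O2 cells, against 139 and 142 in WT basal cells (log2 fold change -1.71, adjusted p = 2.68e-11). Wisp2, a matricellular protein, stood at 102 and 119.9 in WT H2O2 cells, against 359 and 354 in WT basal cells (log2 fold change -1.69, adjusted p = 1.14e-19). Adcyap1r1, a peptide receptor gene, stood at 219 and 224 in WT H2O2 cells, against 672 and 744 in WT basal cells (log2 fold change -1.68, adjusted p = 1.74e-27). The rule that named these falls asked for groups of libraries with no overlap, so that they were apart is no result. Over all genes tested, 71.9% had no overlap.

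Most rises were in genes almost silent before peroxide. Of the 19041 rows of the table, 6115 had fewer than 5 normalised counts in WT basal cells, 624 of these passed the filter and 532 were called higher, which is 52.7% of all rises. They had to rise to be tested, so the share called is no result. The 6115 rows were chosen by their low basal mean, and 2759 of them were at 0 in both basal libraries and could only rise, so their direction is no result either. The risen ones made up 0.0623% of the normalised counts of WT H2O2 cells, with a median level of 14.4.

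Single genes of low basal level, not all of them under 5 normalised counts, had ratios with wide intervals. Mmp25, a membrane-bound matrix protease of neutrophils, had 264 counts over the WT H2O2 libraries and 2 over the WT basal libraries, a ratio per normalised count of 105 (95% counting interval 28.7 to 869). Npc1l1, the intestinal cholesterol transporter, stood at 119 and 119 in WT H2O2 cells, against 0.988 and 2.13 in WT basal cells, a ratio of 77.5 (95% counting interval 26.3 to 378). For L3mbtl1, a chromatin reader, the ratio was 157 (95% counting interval 27.9 to 6237). Cd79a, a chain of the B cell receptor, had 178 counts over the WT H2O2 libraries and 2 over the WT basal libraries, a ratio of 70.6 (95% counting interval 19.3 to 588). Myo15, a myosin of hair cells, stood at 148 and 127 in WT H2O2 cells, against 2.96 and 2.13 in WT basal cells (log2 fold change 5.69, SE 0.365, adjusted p = 2.45e-23). Muc2, the gut mucin, stood at 160.3 and 159 in WT H2O2 cells, against 6.92 and 3.19 in WT basal cells (log2 fold change 4.93, adjusted p = 4.46e-24). Slc5a5, the thyroid iodide transporter, stood at 142 and 159 in WT H2O2 cells, against 8.89 and 12.8 in WT basal cells (log2 fold change 3.79, adjusted p = 3.95e-21). Among the 12 named as the largest rises, 1810011O10Rik alone had basal levels over 50, at 956 and 1154 in WT H2O2 cells, against 88.1 and 70.2 in WT basal cells (log2 fold change 3.73, SE 0.112, adjusted p = 6.27e-31). Of the 8 genes with a basal mean under 2 that stood highest after H2O2, 4 started within 10 kb past the end of a same-strand gene of at least 100 normalised counts in WT basal cells, among them L3mbtl1 6351 bases from Srsf6, Cd79a 7575 from Rps19 and Hhipl2 8017 from Taf1a. No such neighbour was found for the other 4. The share of all genes with such a neighbour is not given here, so these counts are a description only. The counting intervals cover counting error only.

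Some markers of other cell types were among the scarce genes, but Cd14 was not. Of 25 leukocyte markers in the table, 9 were tested, 6 of them through the H2O2 libraries only. With edgeR 6 markers were called higher, and with DESeq2 5. Their summed level was 508 and 533 normalised counts in WT H2O2 libraries, against 180.0 and 156 in WT basal libraries, and 3 markers were at 0 in WT H2O2 cells and 14 in WT basal cells. Most of the summed rise was in Cd14, at 225 and 242 in WT H2O2 cells, against 99.8 and 92.5 in WT basal cells, and in Cd79a and Itgam, whereas Ptprc (CD45), the common leukocyte antigen, had 0 and 3 counts in WT H2O2 libraries and 1 in each WT basal library, and Cd3e had 1 in each WT H2O2 library. Muscle markers summed to 232 and 236 in WT H2O2 libraries, against 69.0 and 82.4 in WT basal libraries, with 1 of 21 at 0 in WT H2O2 cells and 6 in WT basal cells and 7 of 11 tested called higher, 6 of them genes that passed through H2O2 only. Without WT H2O2 replicate 1, 4 were called higher. Cornified keratinocyte markers summed to 222 and 239 in WT H2O2 libraries, against 58.4 and 69.3 in WT basal libraries, led by Sprr1a, a cornified envelope gene, at 135 and 132 in WT H2O2 cells, against 26.7 and 37.2 in WT basal cells (log2 fold change 2.06, adjusted p = 4.9e-13). Neuronal markers summed to 1574 and 1533 in WT H2O2 libraries, against 1517 and 1585 in WT basal libraries, which overlap. The part of other cells in the scarce rises was not tested.

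C3S cells were set beside WT cells only to ask where the WT response differed. The interaction of line and treatment, fitted on all 8 libraries and given as C3S change minus WT change, was called for 190 of 13538 genes, 1.4%, with 135 positive (0.997%) and 55 negative (0.406%). Among the early genes, Egr1 and Jun rose more in WT cells. The Egr1 log2 fold change was 2.55 in WT cells and 1.53 in C3S cells, an interaction of -1.02 (SE 0.0569, adjusted p = 4.39e-15). It was just under 2-fold without WT basal replicate 1, at -0.98 (adjusted p = 8.03e-14), or C3S basal replicate 1, at -0.98 (adjusted p = 4.74e-17). Jun changed by 1.28 in WT cells and by 0.25 in C3S cells (interaction -1.03, SE 0.0608, adjusted p = 1.97e-14), and its interaction was just under 2-fold without WT basal replicate 2, at -0.98 (adjusted p = 3.02e-13), or C3S basal replicate 1, with an adjusted p of 5.54e-16. Atf3 rose by 1.99 in WT cells and by 3.57 in C3S cells (interaction 1.58, SE 0.17, adjusted p = 3.07e-08). Bhlhe40 rose by 1.94 in WT cells and by 3.08 in C3S cells (interaction 1.14, SE 0.0782, adjusted p = 9.41e-13). Vegfa rose by 1.22 in WT cells and by 2.36 in C3S cells (interaction 1.14, SE 0.0791, adjusted p = 9.41e-13). Fosb, lower in WT cells, had a log2 fold change of 0.91 in C3S cells (interaction 1.76, SE 0.0745, adjusted p = 4.51e-18).

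Several falls of WT cells were smaller in C3S cells. The fall of Socs3 was -1.72 in WT cells and -0.04 in C3S cells on the log2 scale (interaction 1.68, SE 0.135, adjusted p = 3.1e-11). For Sik1 the change was -1.65 in WT cells and -0.14 in C3S cells (interaction 1.51, SE 0.134, adjusted p = 3.23e-10). For Dnm3os it was -2.68 in WT cells and -0.64 in C3S cells (interaction 2.03, SE 0.21, adjusted p = 9.84e-09). For Thbs2 it was -1.57 in WT cells and -0.31 in C3S cells (interaction 1.26, SE 0.146, adjusted p = 9.97e-08). The cystine importer gene Slc7a11 changed by 0.70 in WT cells and by 2.43 in C3S cells (interaction 1.73, SE 0.13, adjusted p = 7.03e-12). Sesn2 changed by 0.91 in WT cells and by 2.29 in C3S cells (interaction 1.38, SE 0.102, adjusted p = 5.28e-12). Nr4a1 changed by 0.88 in WT cells and by 2.36 in C3S cells (interaction 1.48, SE 0.096, adjusted p = 9.41e-13). Hmox1 rose by 1.26 in WT cells and by 2.06 in C3S cells, and its interaction of 0.80 (SE 0.0727, adjusted p = 5.54e-10) passed the adjusted p but not 2-fold.

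**Figure D5:**
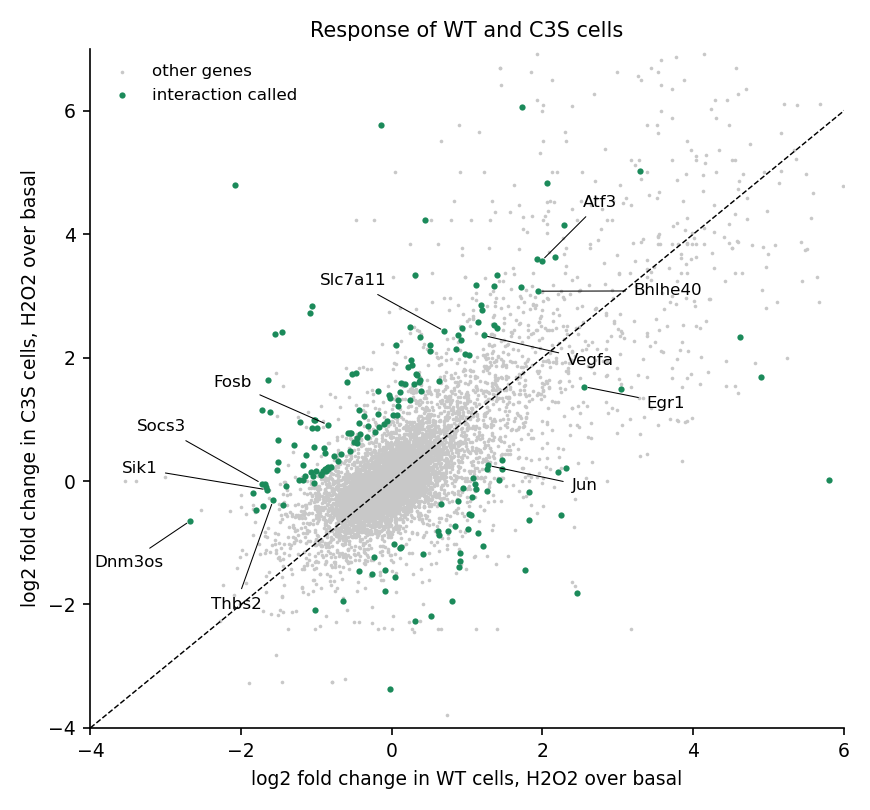
Log2 fold change of H2O2 over basal in WT cells (x axis) and in C3S cells (y axis) for each gene tested, with genes whose interaction was called in green, others in grey, and the line of equal change dashed. The 161 genes beyond the axes are not drawn. Socs3, Sik1 and Dnm3os lie above the line at the left, and Egr1 and Jun lie below it at the right.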

How the data were processed

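RNA of 8 libraries was sequenced as single-end reads from a directional kit. By the methods of the study, the authors used Scythe and Sickle to trim the reads, aligned them with TopHat2 2.0.10 to mm10 and counted uniquely mapped reads over exons, with a counting program and strand setting not given in the sources used here. The deposited table holds expected counts, 58.4% of those above 0 being whole, which were rounded for the fits. A further deposited sheet holds the same values as a signal, divided by the authors with 1 median-of-ratios size factor per library. The other 24 columns of both sheets, which hold group means, standard deviations and a block for plotting single genes, were not used. The 27 rows named by a number of the kind a spreadsheet makes of dates, with 0.28% of counts, stayed in the fits, 20 of them tested and 2 called higher, and are not named.

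The WT libraries were fitted with the quasi-likelihood test of edgeR 4.0.16 (R 4.3.3), with median-of-ratios factors over the 8 libraries, a robust dispersion and p-values adjusted by Benjamini-Hochberg over all genes with a mean expected count of 10 in at least 1 WT group. A gene was called at an adjusted p under 0.05 and at least 2-fold. The difference between the lines was the interaction in a fit of all 8 libraries. The script was tested on simulated data. Alternatives were DESeq2 1.42.0, TMM and library totals, other filters, a replicate block and leaving out each library. Same-numbered libraries deviated with a correlation of 0.0362 over 9879 genes.

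Genes were named by rule, as the 12 rises and the 12 falls of greatest log2 fold change among those called, with at least 100 normalised counts in the higher group with no overlap, the key genes of each list with up to 3 further called members, the 6 largest gains and losses in counts, and the 8 highest genes with a basal mean under 2. The members and gene lists were chosen with earlier results of these data known. Some genes that met the rule are not reported here.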

Additional observations from a re-analysis of the deposited data

Results flagged for a closer look

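Of the 192 genes described, 21 had a change after H2O2 that differed between C3S and WT cells. Each differed by at least 2-fold at an adjusted p under 0.05 in the edgeR interaction. Values are C3S change minus WT change on the log2 scale. Over all genes in this fit, 190 of 13538 were called, 1.4%. Many of the genes described were named for a large change in WT cells, so the share among them is no result. Among early and stress genes, the difference was positive for Atf3 at 1.58, Fosb at 1.76, Nr4a1 at 1.48, Gadd45a at 1.45, Sesn2 at 1.38 and Slc7a11 at 1.73. It was also positive for the signalling genes Lif at 1.17, Socs3 at 1.68, Vegfa at 1.14 and Sik1 at 1.51, and for the clock genes Bhlhe40 at 1.14 and Nr1d1 at 1.06. Among genes that fell in WT cells, the differences were 2.03 for Dnm3os, 1.63 for Adcyap1r1, 1.33 for Dkk3, 1.31 for Tnfrsf11b and 1.26 for Thbs2. The opposite sign was found for Hspa1a at -1.55, Spry1 at -1.07, Jun at -1.03 and Egr1 at -1.02. Spry1 lost this call without each of 6 of the 8 libraries, with an adjusted p of up to 0.129 without C3S H2O2 replicate 2. Nr1d1 was just under 2-fold without WT H2O2 replicate 2, at 0.95 (adjusted p = 1.12e-05), or C3S basal replicate 1, at 0.98 (adjusted p = 4.78e-07). Tnfrsf11b had an adjusted p of 0.0506 without WT H2O2 replicate 2. The reads of Hspa1a are shared with a near-identical copy.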

How the results depend on the processing

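The number of genes called higher was 1010, and 839 to 937 without 1 library, and the number called lower was 236, and 215 to 252. By adjusted p alone these were 2431 and 3546, with 1737 to 2309 higher and 2730 to 3442 lower without 1 library. DESeq2 called 700 higher and 153 lower, sharing 840 genes with edgeR, and gave 1604 higher and 2106 lower by adjusted p alone. A filter at a mean of 50 left 314 called higher, since most rises were scarce, and no filter gave 1163. Scaling set the balance by adjusted p alone, with 4097 higher and 2164 lower under library totals, so that 65.4% of these calls were higher, against 40.7% under median-of-ratios and 49.6% under TMM factors. Size factors from the 4 WT libraries alone, chosen after seeing the data, gave 1038 and 209. The replicate block gave 979 and 238, and 2435 and 3600 by adjusted p alone. The numbers were not taken as a pairing, since same-numbered libraries did not deviate together. The interaction was called for 135 genes with a positive and 55 with a negative difference, 139 and 64 with the replicate block, and 113 to 139 and 48 to 72 without 1 library. Among the 87 named genes called, 11 lost the call under some setting and none changed sign. Under library totals Col1a2, Irs2 and Cxcl5, among others, fell short of 2-fold, and Gpx7, Sod3 and Rora did not pass with DESeq2. Where the text gives no such value, counts of up to 4 calls in a gene list moved by up to 2 genes without 1 library. With 2 libraries per group, small changes in genes of a few counts could not be resolved.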
